A study of Mus musculus with 5 samples.

Results

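The adhesion genes described here are 9 integrin chains (Itgae, Itga1, Itga4, Itgal, Itgav, Itgb1, Itgb2, Itgb3 and Itgb7) and Selplg, the selectin ligand PSGL-1. They were chosen by gene symbol, as 10 of the 23337 genes counted in each of 5 RNA sequencing libraries. All 10 were among the 11299 genes that passed the low-count filter and were tested. The libraries came from tumor-infiltrating OT-I CD8+ T cells, which carry a transgenic T cell receptor for an ovalbumin peptide. The 2 anti-PD-L1 libraries came from tumor-bearing recipients given antibody clone 10F.9G2 against PD-L1, and the 3 Control IgG libraries from recipients given rat IgG2b against KLH. In both groups the T cells were from C57BL/6J CD45.1 OT-I donors aged 6 to 12 weeks, were activated in culture through CD3 and CD28 with low-dose IL-2, and were injected on day 5 or 6 of culture into mice with B16-OVA melanomas of 0.25 to 0.4 cm. Either antibody was injected into the peritoneum at 200 µg per mouse, 3 and 6 days after the transfer. Tumors were taken on day 8 after transfer or once they measured 1.2 cm, tumors of several mice of a group were pooled, and 5000 to 30000 live CD8+ CD45.1+ cells were sorted for RNA. The labels give neither the genotype nor the age of the recipients.

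Integrins are receptors of 1 alpha and 1 beta chain that bind matrix proteins or counter-receptors on other cells. In T cells Itgal pairs with Itgb2 to form LFA-1, which binds ICAM-1 at the contact with a target cell. Itga4 pairs with Itgb1 to bind VCAM-1 and fibronectin, or with Itgb7 to bind MAdCAM-1 of gut vessels. Itgae, which encodes CD103, pairs with Itgb7 and binds E-cadherin on epithelium, and it is induced by TGF-beta in tissue-resident CD8+ T cells. Itga1 pairs with Itgb1 and binds collagen, and Itgav pairs with Itgb1, Itgb3 and other beta chains to bind proteins with an RGD motif, such as vitronectin, fibronectin and osteopontin. PSGL-1 is a mucin-like protein that binds P-selectin once it carries the right sugars, and it also restrains T cell responses in mice.

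The libraries held 11580960 and 12830485 gene counts in the anti-PD-L1 group and 9985943 to 12395682 in the Control IgG group. The CD8+ T cell markers Cd3d, Cd3e, Cd3g, Cd8a, Cd8b1, Cd2 and Thy1 were all present, with summed CPM (counts scaled to a common library total) of 6557 to 7898 in anti-PD-L1 and 6135 to 6857 in Control IgG libraries. The libraries numbered 1 stood apart from the others, with 11977 detected genes in anti-PD-L1 replicate 1 and 11696 in Control IgG replicate 1, against 13564 in anti-PD-L1 replicate 2 and 13673 and 13801 in Control IgG replicates 2 and 3. They also held less RNA of genes with long transcripts. Genes with a transcript of over 6 kb, set against those of up to 2 kb, deviated from the mean of the 5 libraries by a median difference of -0.29 and 0.33 (log2) in anti-PD-L1 replicates 1 and 2, and by -0.48, 0.28 and 0.20 in Control IgG replicates 1, 2 and 3. Several integrin transcripts are long, namely those of Itga1, Itga4 and Itgav, whose longest annotated transcripts measure 10967, 9767 and 7054 bases. The part of transcript length in the results below was not tested.

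**Figure D1:**
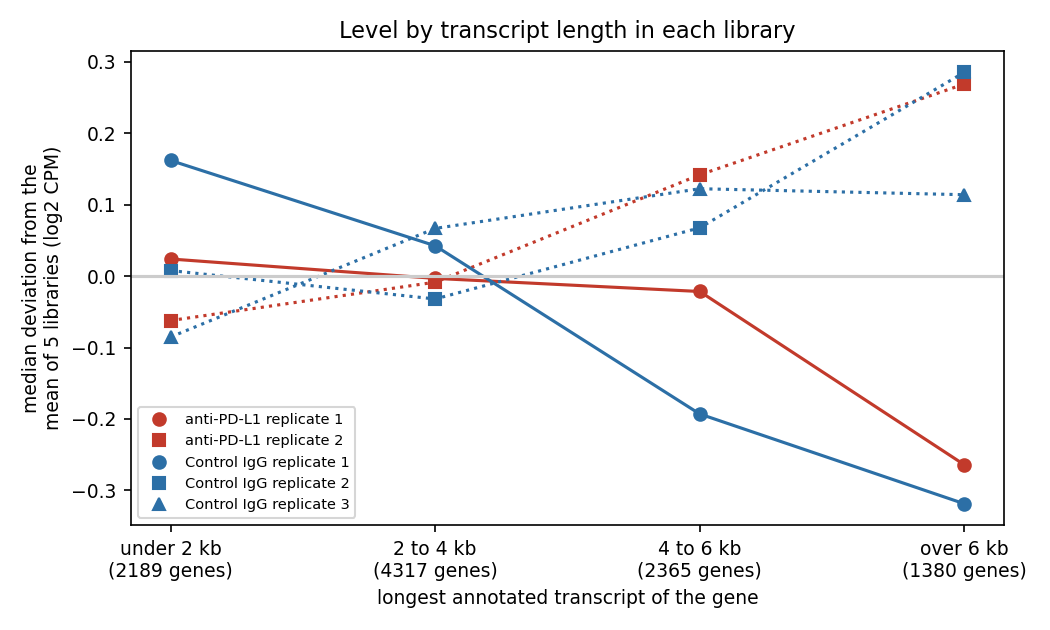
Median deviation of a gene's log2 CPM from its mean over the 5 libraries (vertical axis), for genes grouped by their longest annotated transcript (horizontal axis), with 1 line per library. Among the 1380 genes over 6 kb the libraries numbered 1 (solid lines) lie at -0.26 in anti-PD-L1 and -0.32 in Control IgG, and the others (dotted lines) between 0.11 and 0.29.

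Itgb2, the beta chain of the leukocyte integrins, had the most RNA of the 10 genes. Per kilobase of annotated exon, it had 372 ± 110 CPM in anti-PD-L1 (SD, n = 2) and 280 ± 74.9 CPM in Control IgG libraries (SD, n = 3). Selplg came next with 267 ± 54.1 CPM per kilobase in anti-PD-L1 and 209 ± 30.1 in Control IgG libraries. Itgb1 had 142 ± 0.678 in anti-PD-L1 and 130 ± 27.8 in Control IgG libraries. Itgb7, with 106 ± 7.30 in anti-PD-L1 and 107 ± 27.0 in Control IgG libraries, and Itgal, with 93.9 ± 1.60 in anti-PD-L1 and 82.8 ± 20.3 in Control IgG libraries, made up the rest of an abundant tier. A wide gap followed. No library had under 59.5 CPM per kilobase of Itgal, and none had over 11.2 of Itga4, the next in order.

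The lower tier held the alpha chains other than Itgal, and the beta chain Itgb3. Itga4 had 8.75 ± 3.46 CPM per kilobase in anti-PD-L1 and 7.92 ± 2.23 in Control IgG libraries, and Itgav had 5.94 ± 0.346 in anti-PD-L1 and 3.21 ± 0.80 in Control IgG libraries. Itgb3 followed with 5.15 ± 0.731 in anti-PD-L1 and 3.22 ± 2.24 in Control IgG libraries. The lowest were Itga1, with 1.36 ± 0.449 in anti-PD-L1 and 0.873 ± 0.234 in Control IgG libraries, and Itgae, with 0.565 ± 0.627 in anti-PD-L1 and 0.467 ± 0.468 in Control IgG libraries (SD, n = 2 anti-PD-L1 and n = 3 Control IgG). Neighbours in this order overlapped in range across libraries, except that Selplg lay above Itgb1 and Itgal above Itga4 throughout. Itgav and Itgb3 did not keep their order, with Itgav higher in 3 of 5 libraries. With each gene's longest transcript as its length, Selplg stood above Itgb2 in all 5 libraries, Itgav stood above Itgb3 in all 5, and Itgb7 above Itgal in 2 of 5 in place of 4 of 5, so the order of these neighbours depends on the length used.

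**Figure D2:**
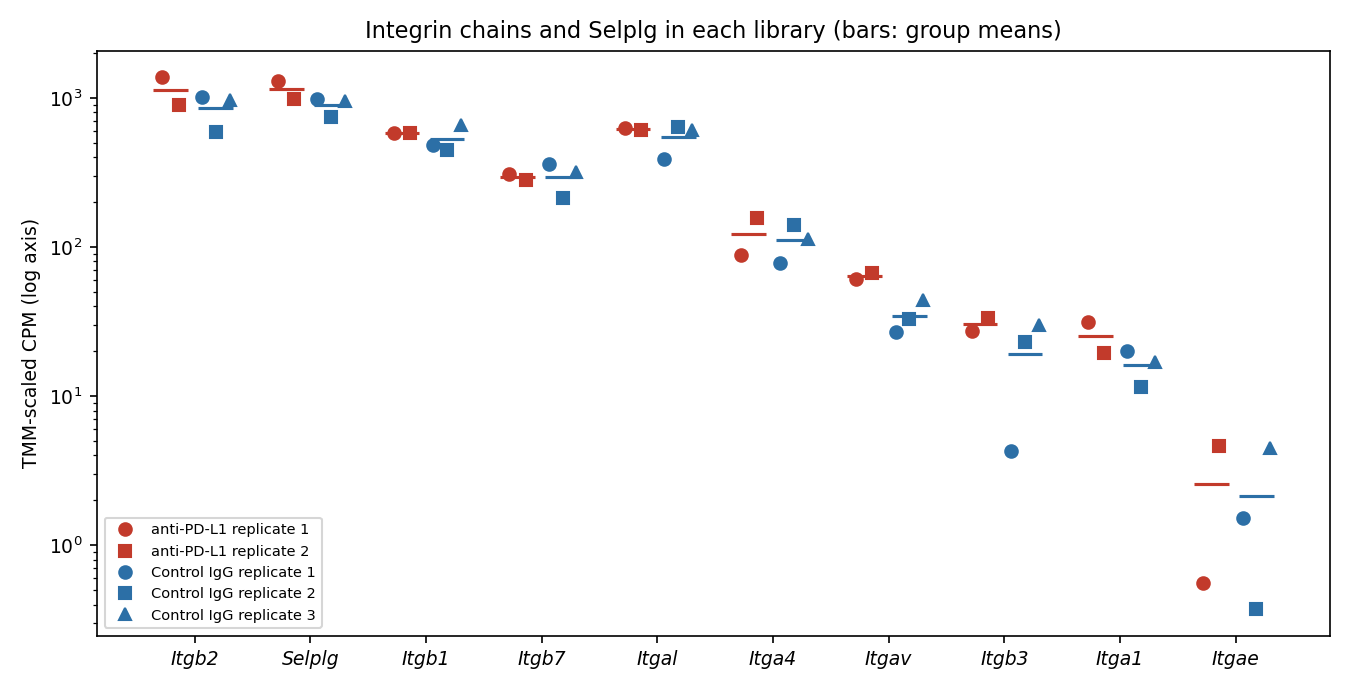
Level of each gene in each library, as CPM scaled by the TMM factors (log axis), with genes ordered by level per kilobase. Both anti-PD-L1 libraries lie above every Control IgG library for Itgav alone, Control IgG replicate 1 lies far below the others for Itgb3 at 4.29 CPM, and Itgae is near 4.5 CPM in 1 library of each group and at most 1.52 CPM in the other 3.

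The comparison of anti-PD-L1 with Control IgG asked whether PD-L1 blockade altered these transcripts. None of the 10 genes passed an adjusted p of 0.05 in edgeR's quasi-likelihood test. Neither did any other gene, so that the share of tested genes called was 0% higher and 0% lower, and the smallest adjusted p, rounded, was 0.9999. Unadjusted p-values under 0.05 were found for 134 genes higher and 107 lower, with Itgav the only one of the 10 among them. DESeq2, an alternative count test, called 4 genes higher and 0 lower, and none was an integrin chain or Selplg. Of the 10 log2 fold changes 9 lay above 0, with a median of 0.31. Over all tested genes 5438 of 11299 lay above 0, with a median of -0.02. The 7 CD8+ T cell markers also all had fold changes above 0, with a median of 0.18. For 2 of these markers both anti-PD-L1 libraries were above every control, beside 7.73% of all tested genes. These 10 values come from the same 5 libraries and are not independent of each other. In CPM scaled by the TMM factors, each anti-PD-L1 library had 4 of the 10 genes above every control. These were Itga1, Itgav, Itgb2 and Selplg in replicate 1 and Itgae, Itga4, Itgav and Itgb3 in replicate 2, so that Itgav alone was shared. The share of all tested genes above every control in a single anti-PD-L1 library was not computed. These counts therefore have no background and are not read as a result. Levels of single genes below are in CPM scaled by the TMM factors unless library totals are named. Sums over marker lists are in CPM by library totals. Fold changes are on the log2 scale with their standard error.

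**Figure D3:**
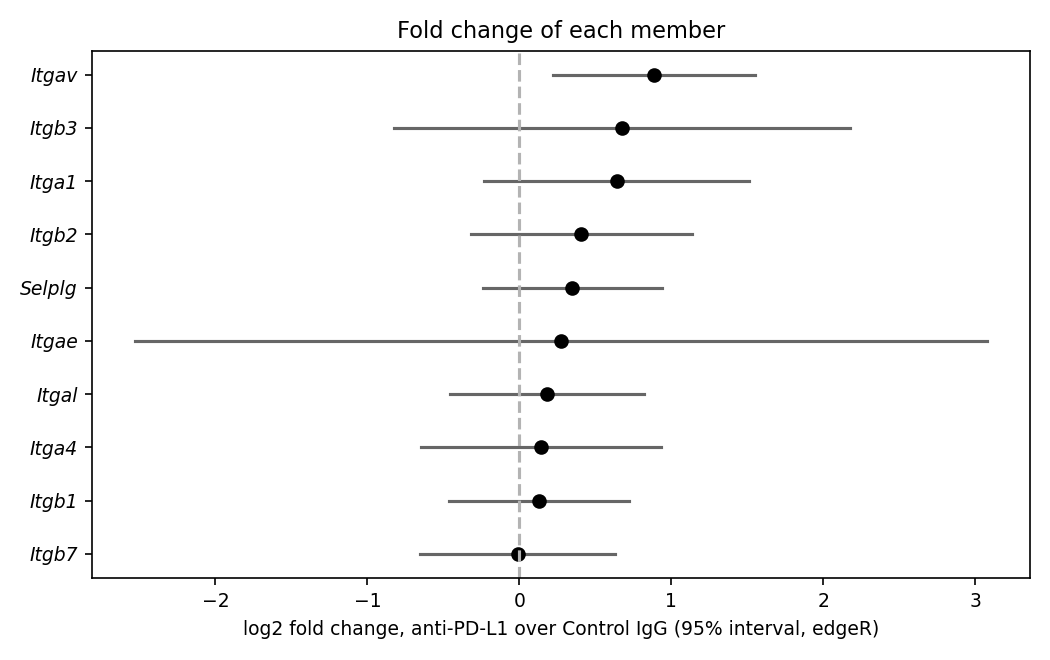
Log2 fold change of each gene, anti-PD-L1 over Control IgG, from edgeR (points) with its 95% interval (lines). The interval of Itgav, 0.22 to 1.55, is the only one that does not include 0, before adjustment for the number of genes tested, and that of Itgae is the widest, -2.53 to 3.08.

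Itgav, the alpha chain of the RGD-binding integrins, was the 1 gene whose groups did not overlap with TMM scaling. It had 61.2 and 66.4 CPM in the anti-PD-L1 libraries, against 26.9, 32.8 and 43.8 CPM in the Control IgG libraries. Both anti-PD-L1 libraries were therefore above the highest control, and they lay closer to each other than the controls did. The log2 fold change was 0.89 ± 0.29, with an unadjusted p of 0.0152, rank 42 among the 11299 genes, and an adjusted p of 0.9999 in edgeR. Over all tested genes, the anti-PD-L1 pair was above the whole Control IgG group for 7.73% and below it for 9.57%, and 1 of 10 above and 0 of 10 below is near that background. With library totals alone, Itga1 and Selplg were also above every control, and the share over all genes was not computed at that scaling. Without 1 library at a time the fold change ran between 0.74, without Control IgG replicate 1, and 1.10, without Control IgG replicate 3. Between libraries of the same number the difference in log2 CPM was 1.18 for number 1 and 1.02 for number 2. Of the 2 libraries poor in long transcripts, Control IgG replicate 1 had 26.9 CPM of Itgav and anti-PD-L1 replicate 1 had 61.2 CPM. The part of transcript length in the Itgav values was not tested.

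Itgav lies on chromosome 2 of GRCm38 from 83724397 to 83806916 on the plus strand, and 5.9% of its exon sequence overlaps the opposite-strand transcript Gm13684, whose reads this unstranded chemistry cannot separate. Its promoter is shown because Itgav is the gene of the 10 in which the groups separated with TMM scaling. The window from RefSeq on GRCm38.p6, plus strand, chr2:83724147-83724446, reaches from 250 bases before the start to 50 bases after it, and capitals mark a match to the GC box.

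Itgav promoter: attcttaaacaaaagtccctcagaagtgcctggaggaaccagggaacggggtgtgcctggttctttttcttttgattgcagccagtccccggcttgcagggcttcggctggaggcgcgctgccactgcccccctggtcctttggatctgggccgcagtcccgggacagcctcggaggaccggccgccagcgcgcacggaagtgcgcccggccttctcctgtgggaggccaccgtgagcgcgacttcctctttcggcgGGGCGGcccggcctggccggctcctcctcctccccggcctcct

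G and C made up 67.3% of these bases. Searched on both strands, the letters GGGCGG of the GC box occurred once, with no overlap with another motif searched, 8 bases into the transcript, and they occur in 35.7% of the 32851 promoter windows of this length in the table. The AP-1 letters TGANTCA, the RUNX letters TGTGGT, the ETS letters CCGGAA and the TATA box letters TATAAA did not occur in this window, and they are found in 7.81%, 16.8%, 14.9% and 13.6% of the windows. Only these letters were searched, so sites in other forms are not covered. The table held windows for 5 of the 10 genes.

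Melanoma cells and macrophages can also express Itgav, so their markers are given beside it. The 7 melanoma markers summed to 40.1 and 103 CPM in the anti-PD-L1 libraries and to 4.03, 300 and 95.1 CPM in the Control IgG libraries. They were highest in Control IgG replicate 2, where Itgav was 32.8 CPM. The 6 of them that were tested had fold changes below 0, with a median of -0.80. The most abundant were Pmel, at 20.9 and 41.2 CPM in anti-PD-L1 and 1.43, 104 and 37.8 CPM in Control IgG libraries, and Dct, at 8.71 and 21.2 CPM in anti-PD-L1 and 0.536, 75.2 and 17.6 CPM in Control IgG libraries. Of the 9 macrophage and monocyte markers, 3 had fold changes above 0 and 6 below, with a median of -0.25. Their sum, 1533 to 2729 CPM in anti-PD-L1 and 1557 to 1630 CPM in Control IgG libraries, was mostly Ly6c2, which activated CD8+ T cells also express. The complement gene C1qa, a macrophage marker, had 5.93 and 10.6 CPM in anti-PD-L1 and 33.1, 9.71 and 4.37 CPM in Control IgG libraries, with Control IgG replicate 1 the highest. Adgre1, which encodes F4/80, had 4.73 and 4.32 CPM in anti-PD-L1 and 1.25, 4.11 and 1.46 CPM in Control IgG libraries. With this TMM scaling both anti-PD-L1 libraries were above the controls, as for Itgav (log2 fold change of 0.99 ± 0.78). The Adgre1 levels rest on 51 and 58 counts in anti-PD-L1 and 14, 44 and 19 counts in Control IgG libraries. By library totals alone, anti-PD-L1 replicate 1 was not above Control IgG replicate 2 for Adgre1. Lyz2 had 22.1 and 34.9 CPM in anti-PD-L1 and 56.1, 44.1 and 24.4 CPM in Control IgG libraries. The part of these cells in the Itgav values was not tested. In bulk RNA of sorted cells, fewer cells with a transcript and less of it per cell cannot be told apart.

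Itgb3, which pairs with Itgav, had 27.3 and 33.4 CPM in the anti-PD-L1 libraries, against 4.29, 23.0 and 29.8 CPM in the Control IgG libraries. The groups overlapped, and 1 control, replicate 1, was far below the rest with 48 counts. A log2 fold change of 0.67 ± 0.65 (unadjusted p of 0.331, adjusted p of 0.9999 in edgeR) was 0.20 without that library, 1.16 without Control IgG replicate 3 and 1.05 in limma-voom. With the replicate number as a block it was 1.55, with an unadjusted p of 0.0264 and an adjusted p of 0.819 in edgeR. Libraries of the same number differed in log2 CPM by 2.67 for number 1, with the 48-count control, and by 0.54 for number 2. The labels give no pairing by number. Itgb3 with Itga2b is also the fibrinogen receptor of platelets. Of the 6 platelet markers Gp9, Gp1bb and Gp6 had 0 counts in every library, Itga2b had 0 counts in all but Control IgG replicate 3, with 4, and Pf4 was at 1.58 and 2.98 CPM in anti-PD-L1 and 2.32, 2.52 and 0.613 CPM in Control IgG libraries. The genes whose levels over the 5 libraries were most like those of Itgb3, by the root mean square difference of centred log2 CPM, were Stat2 at 0.11, Tbc1d9b at 0.17 and Nbr1 at 0.19, all of them lowest in Control IgG replicate 1.

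Itgb1, the shared beta chain of the matrix-binding integrins, differed less. It had 577 and 581 CPM in the anti-PD-L1 libraries, against 486, 444 and 658 CPM in the Control IgG libraries. Both anti-PD-L1 values lay within the range of the controls, and the log2 fold change was 0.13 ± 0.26, with a 95% interval of -0.46 to 0.72. Itga1, its collagen-binding partner, had 31.2 and 19.4 CPM in the anti-PD-L1 libraries, against 20.2, 11.6 and 16.9 CPM in the Control IgG libraries. Anti-PD-L1 replicate 1 was above every control, and replicate 2 was just below the highest of them. When counts were divided by library totals alone, both were above every control, at 29.1 and 20.3 CPM in anti-PD-L1 against 18.2, 12.4 and 17.9 CPM in Control IgG libraries, so this overlap depends on the scaling. Its log2 fold change was 0.64 ± 0.38 (unadjusted p of 0.129, adjusted p of 0.9999 in edgeR), and it became 0.26 when anti-PD-L1 replicate 1 was left out and 0.98 when replicate 2 was. The closest profiles to Itga1 were those of the cytokine receptor gene Crlf2 at 0.046, the NKG2A gene Klrc1 at 0.071 and Cog6 at 0.10. Klrc1 had 406 and 241 CPM in anti-PD-L1 and 262, 164 and 208 CPM in Control IgG libraries.

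Itga4, the alpha chain of VLA-4, had 88.1 and 156 CPM in the anti-PD-L1 libraries, against 78.3, 141 and 113 CPM in the Control IgG libraries. The 2 libraries numbered 1 were the lowest, and between libraries of the same number the difference in log2 CPM, anti-PD-L1 minus Control IgG, was 0.17 for number 1 and 0.15 for number 2. The log2 fold change of 0.14 ± 0.34 became -0.30 when anti-PD-L1 replicate 2 was left out and 0.50 when replicate 1 was. Its exons share 8.04% of their length with Cerkl on the opposite strand.

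Itgb2, the beta chain of LFA-1, had 1371 and 898 CPM in the anti-PD-L1 libraries, against 1013, 593 and 960 CPM in the Control IgG libraries. Anti-PD-L1 replicate 1 was the highest, and replicate 2 lay within the controls. Itgb2 had a log2 fold change of 0.41 ± 0.32 (unadjusted p of 0.234, adjusted p of 0.9999 in edgeR), which became 0.07 when anti-PD-L1 replicate 1 was left out and 0.71 when replicate 2 was. Its partner Itgal had 624 and 609 CPM in the anti-PD-L1 libraries, against 391, 637 and 604 CPM in the Control IgG libraries. Only Control IgG replicate 1 stood apart for Itgal, on the low side, whereas the same library had the highest control level of Itgb2. The log2 fold change of Itgal, 0.18 ± 0.28, was -0.0089 without that library.

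Itgb7, the beta chain of the gut-homing and CD103 integrins, had 308 and 280 CPM in the anti-PD-L1 libraries, against 358, 213 and 318 CPM in the Control IgG libraries. Both anti-PD-L1 values lay within the controls. At -0.01 ± 0.28, the log2 fold change had a 95% interval of -0.66 to 0.63, and its sign changed under most alternative settings. Itgae, which encodes CD103, was the least abundant of the 10. It had 0.556 CPM in anti-PD-L1 replicate 1 and 4.62 CPM in replicate 2, against 1.52, 0.373 and 4.52 CPM in the Control IgG libraries. These levels rest on 6 and 62 counts in the anti-PD-L1 libraries and on 17, 4 and 59 counts in the Control IgG libraries. Exact Poisson intervals, which cover counting error only, were 0.204 to 1.21 and 3.54 to 5.92 CPM in anti-PD-L1 replicates 1 and 2, and 0.885 to 2.43, 0.102 to 0.956 and 3.44 to 5.83 CPM in Control IgG replicates 1, 2 and 3. The spread within each group thus exceeded the counting error of reads, and the highest library of each group had nearly the same level. The chemistry marks no molecules, so error from sampling molecules before amplification is not in these intervals. With a log2 fold change of 0.27 ± 1.22 and a 95% interval of -2.53 to 3.08, a difference of several fold in either direction would not be detectable at this depth and replication. The nearest profiles among genes whose log2 CPM averaged 3 or more were those of Tpcn2 at 0.83, Acadsb at 0.83 and Socs3 at 0.85, farther from Itgae than the nearest profiles of Itgb3 and Itga1 were from theirs.

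Selplg had 1302 and 975 CPM in the anti-PD-L1 libraries, against 980, 746 and 956 CPM in the Control IgG libraries. Anti-PD-L1 replicate 1 was the highest and replicate 2 lay within the range of the controls. By library totals alone, both anti-PD-L1 libraries were above every control, at 1213 and 1021 CPM. The Control IgG libraries were then at 884, 801 and 1013 CPM, so this overlap depends on the scaling. The log2 fold change of Selplg was 0.35 ± 0.26 (unadjusted p of 0.210, adjusted p of 0.9999 in edgeR). It became 0.12 when anti-PD-L1 replicate 1 was left out and 0.57 when replicate 2 was. Among the controls Selplg varied least of the 10 genes, with a coefficient of variation of 14.4%, and Itgae most, with 100.2%.

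Ratios of partner chains within a library need no scaling between libraries, but they keep any difference between libraries in RNA of long transcripts. The ratios of Itga4 to Itgb1 and to Itgb7 were lowest in the 2 libraries numbered 1. The part of transcript length in these ratios was not tested. As RNA per kilobase, the beta chain exceeded the alpha chain in every library for 6 of the 7 pairs examined, and these are ratios of RNA, not of protein. The log2 ratio of Itgal to Itgb2 was -2.24 and -1.67 in anti-PD-L1 and -2.48, -1.003 and -1.77 in Control IgG libraries, with overlapping groups. The ratio of Itgav to Itgb1 was -4.63 and -4.53 in anti-PD-L1 and -5.57, -5.16 and -5.30 in Control IgG libraries. This was the 1 pair whose groups did not overlap, with a mean difference of 0.76 and a two-sided exact permutation p of 0.2, which is the smallest that 2 against 3 libraries can give and is 1 after adjustment over the 7 pairs. For Itgav to Itgb3 the ratio was 0.30 and 0.13 in anti-PD-L1 and 1.78, -0.35 and -0.31 in Control IgG libraries, with Control IgG replicate 1 far above the rest. With the longest transcripts as lengths this ratio was above 0 in every library, at 0.88 and 0.70 in anti-PD-L1 and 2.36, 0.23 and 0.27 in Control IgG libraries. The ratio of Itga4 differed by -0.03 on average with Itgb1 and by 0.11 with Itgb7, that of Itga1 to Itgb1 by 0.49 and that of Itgae to Itgb7 by 0.21, all with overlapping groups and with exact permutation p-values of 0.4 to 1.

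**Figure D4:**
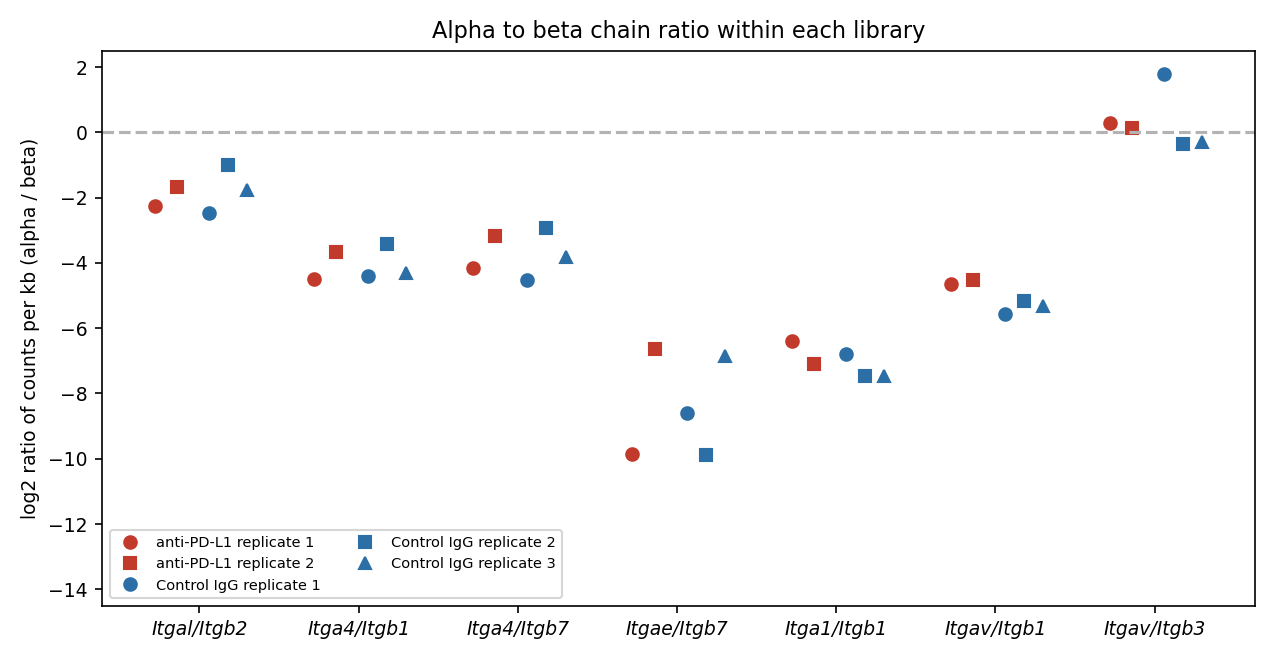
Log2 ratio of alpha to beta chain counts per kilobase of exon (vertical axis) for 7 pairs that form known integrins, with 1 point per library. Both anti-PD-L1 libraries lie above the 3 Control IgG libraries for Itgav/Itgb1, at -4.63 and -4.53 against -5.57 to -5.16, and the groups overlap for the other 6 pairs, of which Itgav/Itgb3 alone reaches above 0.

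The other integrin chains were scarce. Of 17 listed, 7 were tested, 5 with a fold change above 0 and 2 below, a median of 0.84 and 0 called, while Itga8, Itga11 and Itgb6 had 0 counts in all 5 libraries. The collagen-binding chain Itga2 had 4.73 and 2.01 CPM in anti-PD-L1 and 1.07, 1.68 and 1.15 CPM in Control IgG libraries, a log2 fold change of 1.36 ± 0.86. The fibronectin-binding chain Itga5 had 0 and 1.04 CPM in anti-PD-L1 and 1.25, 1.96 and 3.45 CPM in Control IgG libraries. Itgam and Itgax, the myeloid partners of Itgb2 that activated CD8+ T cells can also express, had log2 fold changes of 1.29 ± 0.79 and 0.65 ± 0.44. Itgax had 16.2 and 36.2 CPM in anti-PD-L1 and 15.6, 12.1 and 22.3 CPM in Control IgG libraries, far below Itgal in each library.

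Proteins that switch integrins on from inside the cell, such as talin and kindlin-3, and the adhesion scaffold were represented by 25 genes, all tested. Of these 21 had a fold change above 0, 4 below and 0 were called, with a median of 0.21. The nearest to a call was zyxin (Zyx), with 367 and 248 CPM in anti-PD-L1 and 193, 187 and 245 CPM in Control IgG libraries, a log2 fold change of 0.56 ± 0.27 and an unadjusted p of 0.0684 (adjusted p of 0.9999 in edgeR). The kinase gene Ptk2b had 0.62 ± 0.35, the actin regulator Vasp 0.40 ± 0.25 and the adaptor Fyb -0.44 ± 0.30. Talin (Tln1), with 392 and 459 CPM in anti-PD-L1 and 236, 414 and 456 CPM in Control IgG libraries, was lowest in Control IgG replicate 1, as were Itgal, Itga4, Itgav and Itgb3.

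A list of selectins, selectin ligand proteins other than PSGL-1, and enzymes and a transporter for the sugars and sulfates of such ligands numbered 19, of which 17 were tested, 10 above 0 and 7 below, with a median of 0.15 and 0 called. Gcnt1, the core 2 branching enzyme needed for P-selectin binding, had 19.7 and 12.4 CPM in anti-PD-L1 and 8.40, 4.11 and 7.97 CPM in Control IgG libraries. Both anti-PD-L1 libraries were above the controls, with a log2 fold change of 1.23 ± 0.46, an unadjusted p of 0.0278 and an adjusted p of 0.9999 in edgeR. Tpst1, a sulfotransferase that acts on tyrosines, had 2.69 and 7.08 CPM in anti-PD-L1 and 17.6, 14.7 and 10.1 CPM in Control IgG libraries, a log2 fold change of -1.52 ± 0.54 with an unadjusted p of 0.0221 and an adjusted p of 0.9999 in edgeR. Its relative Tpst2 was far more abundant, at 314 and 198 CPM in anti-PD-L1 and 194, 150 and 222 CPM in Control IgG libraries. The fucosyltransferase gene Fut7 had a log2 fold change of 0.76 ± 0.42.

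Of 12 integrin ligand genes 6 were tested, 1 above 0 and 5 below, with a median of -0.36 and 0 called, and ligands made by other cells are seen here only as RNA in the sorted T cells. Icam2, a ligand of LFA-1, had 33.4 CPM in both anti-PD-L1 libraries and 67.6, 38.7 and 38.7 CPM in Control IgG libraries, a log2 fold change of -0.53 ± 0.33, and Icam1 had -0.10 ± 0.24. Fibronectin (Fn1) had 0 counts in both anti-PD-L1 libraries and 7, 9 and 12 counts in Control IgG libraries, which is at least 3.17-fold lower with each library's floor set at 3 counts, and a median with Fn1 at this bound was -0.36 as well. The E-cadherin gene Cdh1, the ligand of CD103, had 0.927 and 0.819 CPM in anti-PD-L1 and 5.18, 0 and 0.613 CPM in Control IgG libraries. Osteopontin (Spp1), a ligand of Itgav integrins, had 1886 and 679 CPM in anti-PD-L1 and 651, 526 and 425 CPM in Control IgG libraries, a log2 fold change of 1.26 ± 0.41 with an unadjusted p of 0.0151 and an adjusted p of 0.9999 in edgeR.

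A list of 13 tested genes tied to tissue residency, other than Itgae, mixes genes known to be high in resident cells with genes of tissue egress known to be low in them. Of the 13, 6 had a fold change above 0 and 7 below, with a median of -0.05 and 0 called. The egress genes Klf2, S1pr1 and Ccr7 were among those below 0, at -0.37 ± 0.60, -0.08 ± 0.44 and -0.23 ± 0.76. For each of these egress genes anti-PD-L1 replicate 1 was below every control, and replicate 2 lay within the controls. The others below 0 were Cd69 at -0.34 ± 0.45, Ahr at -0.57 ± 1.20, Tgfbr1 at -0.25 ± 0.60 and Smad3 at -0.05 ± 0.58. Anti-PD-L1 replicate 1 was below every control for Cd69, Ahr, Tgfbr1, Smad3 and Smad7 too, so this was not particular to the egress genes. How many of all tested genes were below every control in that library was not computed. The TGF-beta receptor gene Tgfbr2 had 193 and 164 CPM in anti-PD-L1 and 101, 116 and 130 CPM in Control IgG libraries, a log2 fold change of 0.63 ± 0.24. Prdm1, which encodes Blimp-1, had 0.89 ± 0.30, the chemokine receptor gene Cxcr6 0.85 ± 0.36 and the CD8 lineage factor Runx3 0.38 ± 0.26. Unadjusted p-values were 0.0289 for Tgfbr2, 0.0182 for Prdm1 and 0.0448 for Cxcr6, and each adjusted p was 0.9999 in edgeR.

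**Figure D5:**
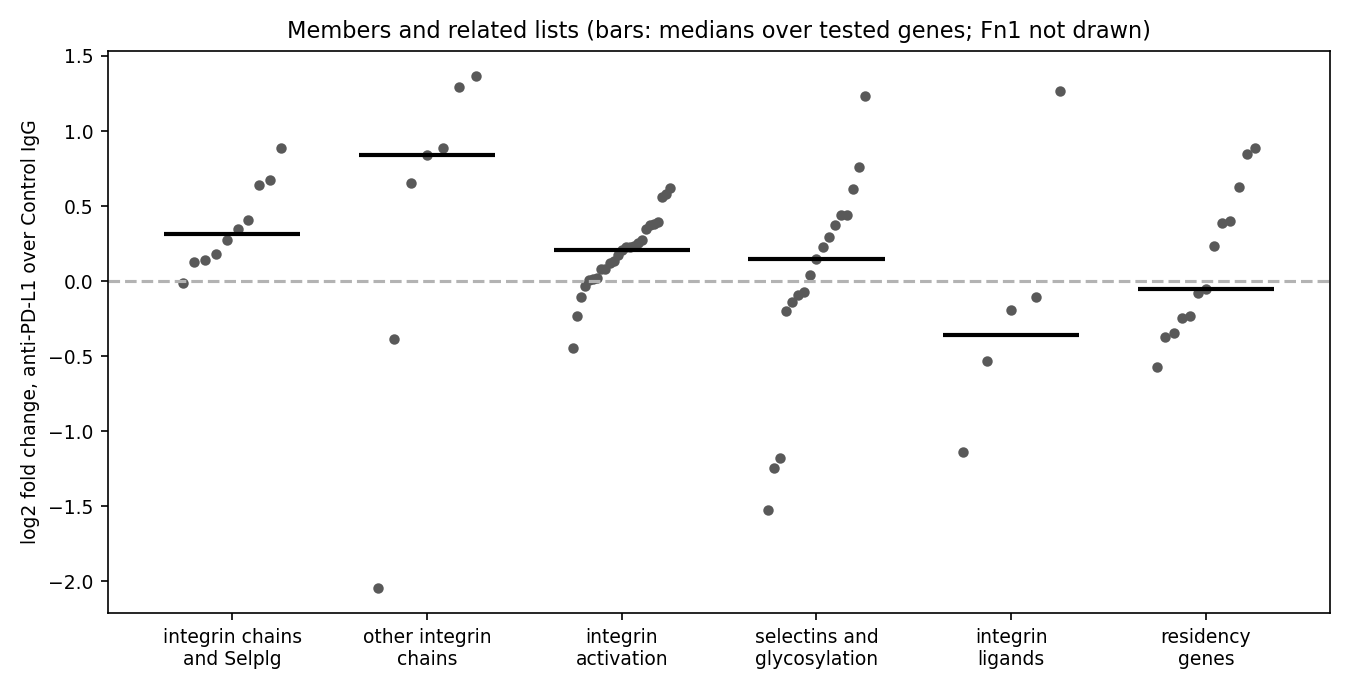
Log2 fold change, anti-PD-L1 over Control IgG, of each tested gene (points) in the integrin and Selplg set and in 5 related lists, with the median of each list as a bar. The medians are 0.31, 0.84, 0.21, 0.15, -0.36 and -0.05 from left to right, and Fn1, which had 0 counts in both anti-PD-L1 libraries, is not drawn but counts in its median.

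Other cell types left few traces besides melanoma and macrophages. B cell markers summed to 1.30 and 5.07 CPM in anti-PD-L1 and 3.61 to 6.49 CPM in Control IgG libraries, with Pax5 at 0 counts in all libraries and nearly all of the sum in Cd79b, at 11 and 63 counts in anti-PD-L1 and 65, 33 and 74 counts in Control IgG libraries. Defining markers were at or near 0 for fibroblasts, whose 6 markers summed to at most 0.390 CPM in anti-PD-L1 and 1.69 CPM in Control IgG libraries, and for endothelium, where Cdh5, Kdr, Tek and Emcn had 0 counts and the sum was nearly all Pecam1, at 30.6 to 54.4 CPM, which T cells can express. Dendritic cell markers summed to 33.2 and 53.7 CPM in anti-PD-L1 and 23.1 to 34.0 CPM in Control IgG libraries, mainly Itgax and Xcr1. Xcr1 had 19.5 and 7.89 CPM in anti-PD-L1 and 5.36, 4.57 and 5.13 CPM in Control IgG libraries. Both anti-PD-L1 libraries were thus above the controls for Xcr1, with a log2 fold change of 1.44 ± 0.50. Its unadjusted p was 0.0193 and its adjusted p 0.9999 in edgeR. Zbtb46 had 0 and 79 counts in anti-PD-L1 and 88, 49 and 42 counts in Control IgG libraries. Its log2 fold change was -0.81 ± 1.33. Clec9a had 0 and 3 counts in anti-PD-L1 and 0, 0 and 5 counts in Control IgG libraries. The part of dendritic cells in the integrin values was not tested. Natural killer markers summed to 8.98 and 31.3 CPM in anti-PD-L1 and 23.9 to 32.6 CPM in Control IgG libraries, led by Eomes, which CD8+ T cells also express, and Klrb1c, with Klra4 and Klra8 at 0 counts. CD4 T cell markers, led by Foxp3 and Cd40lg, summed to 11.5 and 20.0 CPM in anti-PD-L1 and 12.9 to 24.7 CPM in Control IgG libraries, with at most 16 counts of Cd4 in a library. Neutrophil markers, led by Cxcr2 and Csf3r, summed to 3.45 and 7.17 CPM in anti-PD-L1 and 2.34 to 11.6 CPM in Control IgG libraries, and S100a9 and Retnlg had 0 counts.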

How the data were processed

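For each gene symbol the authors deposited a whole-number count of reads, without normalization. TopHat, HTSeq and build mm10 are named per the submitters' processing notes, and the sources used here give no version, annotation or strand setting. Per the labels' protocols, poly(A) RNA was amplified by a Smart-seq2 protocol (8 cycles) and tagmented (12 PCR cycles), a chemistry that marks neither strand nor molecule. Counter lines stayed out of library sizes. Reads without a feature were 7.46% to 15.2% and ambiguous reads 1.38% to 1.51% of all counts. A floor of 3 counts equals 0.234 to 0.300 CPM.

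Genes were tested in R 4.3.3 with edgeR 4.0.16 (quasi-likelihood F-test, two-sided, TMM, default filterByExpr, minimum count 10), with Benjamini-Hochberg adjustment over the 11299 tested genes. The median standard error was 0.38 (log2) and the biological coefficient of variation 41.1%. The test was checked on simulated data. Standard errors are the fold change divided by the square root of F. Sums over marker lists use CPM by library totals. Log2 CPM for profiles, transcript-length deviations and mean levels used a prior count of 2. Lengths, loci and overlaps are those of GENCODE vM21 (GRCm38, the same assembly as mm10), and 90.7% of tested genes had a length. Alternatives used DESeq2 1.42.0 and limma-voom 3.58.1, other scalings, no filter, libraries left out and a replicate block.

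Groups and replicate numbers come from the labels, which do not say which mice entered which pool, so p-values measure the spread between pools. No pair of libraries was a copy, since chi-square per degree of freedom ran from 19.2 to 92.3. The genes and lists were chosen with earlier results of these data known. All 10 genes are named, as are up to 4 tested genes of smallest p per list, 2 markers per cell type, and the 3 closest profiles of the 3 genes with the widest range. Icam1, Tpst2, Tln1, C1qa, Adgre1, Klf2, S1pr1, Ccr7, Cd69, Ahr, Tgfbr1, Smad3, Smad7, Zbtb46, Clec9a and Cd4 were added after values were seen. So were the marker genes at 0 and the transcript-length comparison. The symbol Zfp683 was not matched to a listed gene. Genes that these rules name and that are withheld are not reported here.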

Additional observations from a re-analysis of the deposited data

How the results depend on the processing

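Across 12 alternatives, none of the 10 genes passed an adjusted p of 0.05. Itga1, Itgav, Itgb1, Itgb2, Itgb3 and Selplg kept a positive fold change in all of them, with Itgav between 0.74 and 1.10 and its adjusted p between 0.519 and 1. Itgb7, at -0.01, was 0.0050 with DESeq2 size factors in edgeR, 0.0033 in DESeq2, 0.020 in limma-voom, 0.059 without both libraries numbered 1, 0.087 with the replicate block, and -0.20 to 0.15 with 1 library left out. Leaving out 1 library gave -1.89 to 1.44 for Itgae, -0.30 to 0.50 for Itga4 and -0.0089 to 0.31 for Itgal, which was -0.039 without both libraries numbered 1. Where an anti-PD-L1 library was left out, the lone one was assumed to vary like the controls. The cause of these sign changes was not tested. Over all genes, 5 were called higher without the low-count filter, 4 in DESeq2 and 1 without both libraries numbered 1, against 0 otherwise, and none was lower. With the replicate number as a block, 0 genes were called, and Itgav was 1.10 with an adjusted p of 0.819. Deviations of same-numbered libraries correlated at 0.33 and 0.37. With 2 anti-PD-L1 libraries these deviations are mirror images, so that 1 of the 2 had to correlate positively with each control. Anti-PD-L1 replicate 2 also had 0.16 with Control IgG replicate 3. In log2 CPM itself, Control IgG replicate 3 was the closest control to both anti-PD-L1 libraries, at correlations of 0.936 and 0.977. These values cannot show a pairing, only 2 numbers are shared, and the labels give no pairing. In edgeR, other scalings shifted the median of all genes by 0.015 with DESeq2 size factors and by -0.031 with library totals. Of 127 alternatives for chain ratios and list sums, 12 moved by over the spread between replicates, all without an anti-PD-L1 library, and these were list sums. The spread of the chain ratios was wide, and with 1 library left out their differences ran from -1.39 to 1.80 for Itgae/Itgb7, -0.57 to 0.17 for Itgal/Itgb2, -0.44 to 0.38 for Itga4/Itgb1, -0.38 to 0.59 for Itga4/Itgb7 and -0.53 to 0.54 for Itgav/Itgb3, changing sign in each, and from 0.14 to 0.83 for Itga1/Itgb1 and 0.65 to 0.86 for Itgav/Itgb1. With 2 anti-PD-L1 libraries, and with 4 to 62 counts for Itgae, modest differences were not detectable.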
